A study of Mus musculus with 6 samples.

Results

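Fatty acid desaturases and elongases set the length and the number of double bonds of the fatty acids a cell holds, and 9 genes of this machinery were followed in mammary tumours of mice that received a drug acting on the liver X receptors (LXR) or vehicle. The desaturases are the stearoyl-CoA desaturases Scd1 and Scd2 and the front-end desaturases and their relative Fads1, Fads2 and Fads3. The elongases are Elovl1, Elovl5, Elovl6 and Elovl7. All 9 were chosen with earlier results of these data known, and their rows were picked by gene symbol, a rule using no measured value. Each had 1 row among the 55487 gene rows of the tables, and all 9 passed the low-count filter that left 17396 genes for testing. The agonist group held 3 tumour libraries from MMTV-PyMT mice dosed with DMHCA, a sterol derivative that activates LXR, taken orally in Medigel cups and started when the mice were 6 weeks old. The vehicle group held 3 tumour libraries from MMTV-PyMT mice that took cups on the same schedule. All 6 libraries therefore carry the MMTV-PyMT transgene, in which the mouse mammary tumour virus promoter drives the polyoma virus middle T antigen in the mammary epithelium, and no normal gland was included. Separate mice for the 3 libraries of a group are not stated, and their titles carry 1 shared code, so treatment and a possible common source cannot be told apart, and the p-values measure only the spread between these samples.

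LXRs are nuclear receptors that are activated by oxidised sterols and bind DNA together with the retinoid X receptor. In the liver they raise fatty acid synthesis, in part through the transcription factor SREBP-1c, the product of Srebf1, and Scd1 is among the best known lipogenic genes under this control. Stearoyl-CoA desaturases place the initial double bond into saturated acyl chains and so make palmitoleate and oleate. FADS enzymes add further double bonds to dietary linoleate and alpha-linolenate, and ELOVL enzymes carry out the rate-limiting condensation that lengthens acyl chains in the endoplasmic reticulum. In the lactating gland the same machinery serves milk fat, and in tumours it sets the saturation of membrane lipids.

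Reads of the 6 libraries summed to between 36577451 and 42595799 expected counts, the estimated reads per gene of the RSEM program. Markers of mammary epithelium were abundant in every library: in transcripts-per-million units (TPM), which are relative to transcript length, the summed level of 7 luminal markers lay between 2809 and 3192 TPM in the agonist libraries and between 3189 and 3371 TPM in the vehicle libraries. Differences between groups are given below in counts-per-million units (CPM), scaled by the TMM method. Vehicle replicate 2 stood apart, since the single row CT010467.1 took 5.55% of its counts, against 0.112% to 0.247% in the other libraries, which lowers the TPM of all its other genes. No gene of the 17396 was called between agonist and vehicle at an adjusted p under 0.05 by edgeR's quasi-likelihood test (percentage called 0%), and 538 had an unadjusted p under 0.05, a number that was 2442 without vehicle replicate 2, again with 0 genes called.

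Scd1 and Scd2 lie near each other on chromosome 19 of GRCm38, Scd2 on the plus strand at chr19:44293674-44306864 and Scd1 on the minus strand at chr19:44394455-44407879, with 87.6 kb and the gene Scd4 between them. Their coding sequences were identical at 965 of 1064 aligned bases, or 90.7%, with a longest identical run of 147 bases. A sequencing read that falls wholly inside such a run cannot by itself be placed with either gene, and the stretch around it is shown because it bears on how the counts of the pair are read. Both lines give 207 bases of coding sequence, from base 493 of the Scd1 and base 502 of the Scd2 reading frame in GENCODE M21, with capitals at the 2 bases that differ.
Scd1: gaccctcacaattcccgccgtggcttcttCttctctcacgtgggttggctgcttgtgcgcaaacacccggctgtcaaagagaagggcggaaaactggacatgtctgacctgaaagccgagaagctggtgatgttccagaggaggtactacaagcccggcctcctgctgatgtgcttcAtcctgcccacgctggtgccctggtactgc
Scd2: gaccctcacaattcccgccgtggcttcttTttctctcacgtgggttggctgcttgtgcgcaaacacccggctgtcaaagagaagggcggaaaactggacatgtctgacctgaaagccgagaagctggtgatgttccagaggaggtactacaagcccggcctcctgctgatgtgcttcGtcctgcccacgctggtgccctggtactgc
The same ambiguity shows on the side of the reads. Scd1 and Scd2 had expected counts that were not whole in all 6 libraries, between 16363.96 and 87611.14 for Scd1 and between 23800.76 and 56511.47 for Scd2. The other 7 genes had whole counts in every library, with no sign of reads divided with another gene. Scd3, an isoform of skin and Harderian gland, also had counts that were not whole in all 6 libraries, between 145.01 and 413.38. It was closer to Scd1 in its coding sequence, with 91.5% identity and a run of 185 bases. Its mean, however, was only 6.59 ± 3.05 CPM in agonist and 5.69 ± 2.21 CPM in vehicle tumours (SD, n = 3 each). By comparison, the 3 Fads genes were 68.4% to 72.8% identical to each other and the 4 elongases 63.4% to 67.3%.

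Levels per transcript length fell into tiers by their means. Scd1, with a mean of 230.1 TPM over the 6 libraries and a range of 94.68 to 526.78 TPM, and Scd2, with a mean of 187.1 TPM and a range of 110.45 to 298.72 TPM, were the most abundant of the 9 and could not be ordered against each other. Elovl1, the elongase of saturated and monounsaturated very long chains, came next at 81.6 TPM. Its highest library, vehicle replicate 1 at 104.41 TPM, lay below the lowest of Scd2. In that same library, however, Elovl1 was above Scd1 at 94.68 TPM, so the ranges of Elovl1 and Scd1 overlapped. Fads2 at 45.3 TPM, Elovl5 at 43.9 TPM and Fads1 at 31.7 TPM formed a middle tier. The highest library of Fads2, at 63.5 TPM, lay below the lowest of Elovl1 at 66.62 TPM, and the ranges of Fads2, Elovl5 and Fads1 overlapped. Elovl7 at 11.3 TPM, Elovl6 at 9.12 TPM and Fads3 at 8.56 TPM were lowest, and their ranges also overlapped.

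**Figure D1:**
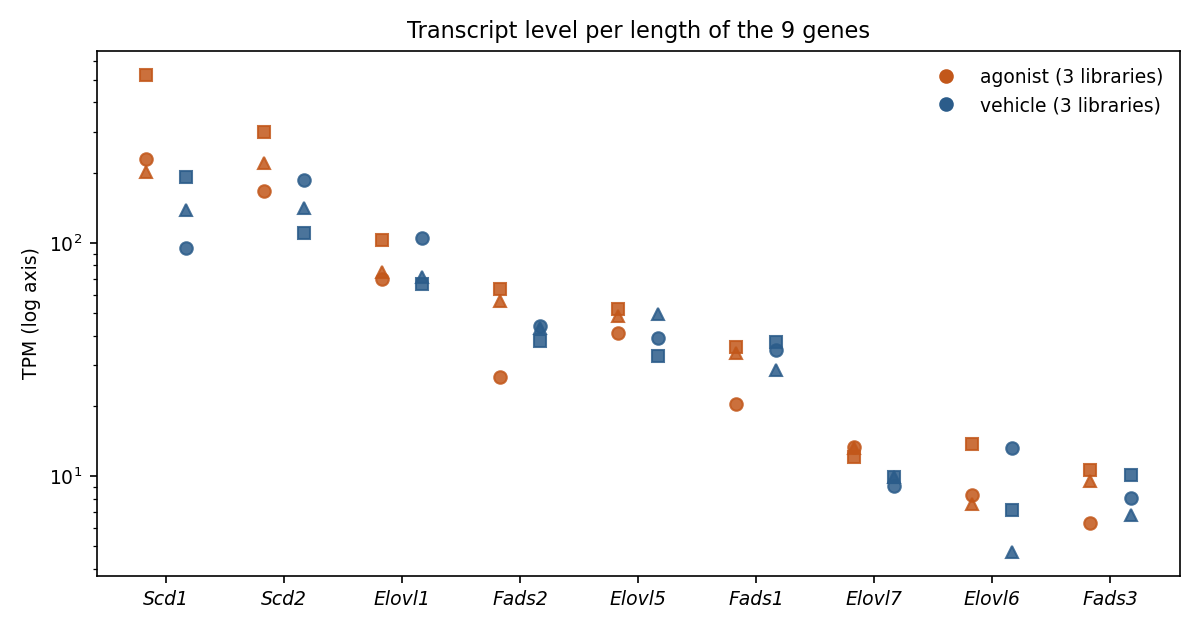
Level of the 9 genes in TPM (log axis) in each of the 3 agonist libraries (orange) and 3 vehicle libraries (blue), genes ordered by their mean over the 6 libraries; marker shapes are replicate numbers. Scd1 and Scd2 lie above 94 TPM in every library, Elovl1 between 66.62 and 104.41 TPM, and Elovl7, Elovl6 and Fads3 below 14 TPM.

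Between agonist and vehicle tumours none of the 9 genes was called at an adjusted p under 0.05, and the values of the stearoyl-CoA desaturases lay furthest on the agonist side. Log2 fold changes were positive for 7 of the 9 genes and negative for Fads1 and Fads3, with a median of 0.19, against a median of -0.00486 and 8579 positive genes over all 17396. Scd2 was the 1 gene of the 9 with an unadjusted p under 0.05, and it was on the higher side; of all genes, 0.719% had such a p and were higher with agonist, and 2.37% had such a p and were lower. This count among the 9 ran from 0, without agonist replicate 2 or without vehicle replicate 3, to 3 in the limma fits. Elovl7 was the 1 gene of the 9 whose libraries did not overlap in CPM, again on the higher side, against 3.02% of all genes that were apart and higher and 4.22% that were apart and lower. On the TPM scale Scd1 and Elovl7, 2 of the 9, were apart and higher and 0 were apart and lower, against 6.32% and 1.45% of all genes.

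**Figure D2:**
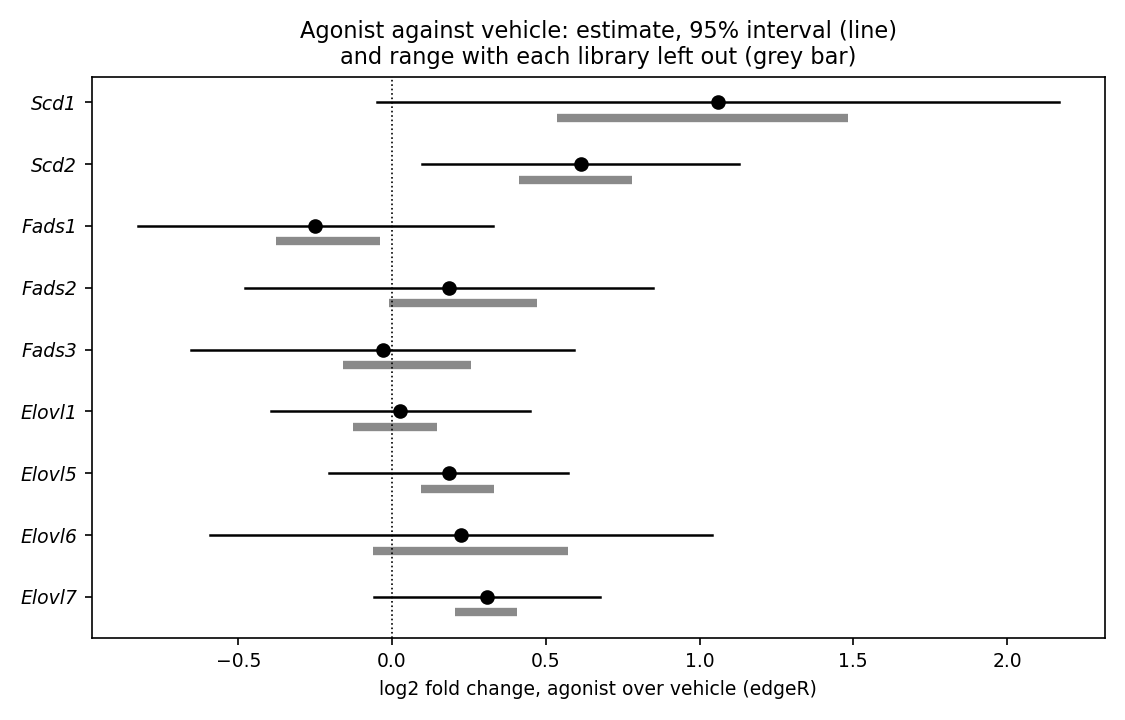
Log2 fold change of agonist over vehicle for each of the 9 genes from edgeR's fit (points) with its 95% interval (black line) and the range of the estimate when each of the 6 libraries was left out in turn (grey bar). The interval of Scd2 alone, 0.10 to 1.13, lies above 0, and the leave-one-out ranges of Fads2, Fads3, Elovl1 and Elovl6 cross 0.

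Scd1, the main stearoyl-CoA desaturase of liver, fat and mammary gland, had 995.34, 2138.13 and 863.32 CPM in the agonist libraries, against 373.03, 965.27 and 580.18 CPM in the vehicle libraries. The groups overlapped through vehicle replicate 2, which was above agonist replicate 3, and agonist replicate 2 stood far above the other 5 libraries. The means were 1332 ± 701 CPM in agonist and 639.5 ± 300.5 CPM in vehicle tumours (SD, n = 3 each), which gave a log2 difference of 1.06 ± 0.47 (SE, 95% interval -0.05 to 2.17; edgeR unadjusted p = 0.0584, adjusted p = 0.99). The estimate was 0.54 without agonist replicate 2 and 1.48 without vehicle replicate 2. Per length, Scd1 had 228.57, 526.78 and 200.64 TPM in agonist libraries, against 94.68, 191.33 and 138.77 TPM in vehicle libraries, and here the groups did not overlap. With the row CT010467.1 left out of the TPM total, a step chosen after seeing the data, vehicle replicate 2 had 198.11 TPM against 200.79 TPM in agonist replicate 3, so the gap between the groups narrowed to 2.69 TPM.

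Scd2, an isoform with a known role in early life and in the brain of mice, had 826.73, 1379.14 and 1077.43 CPM in the agonist libraries, against 835.23, 633.66 and 677.82 CPM in the vehicle libraries. Only the lowest agonist and the highest vehicle library, both replicate 1, were out of order, and they were nearly level. The log2 fold change was 0.61 ± 0.22 (SE, 95% interval 0.10 to 1.13; edgeR unadjusted p = 0.0252, adjusted p = 0.99), and it lay between 0.41 without agonist replicate 2 and 0.78 without agonist replicate 1.

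Because reads are divided between the pair, their sum was also formed, a choice made after the values were seen and given without a test. Scd1 and Scd2 together had 395.6, 825.5 and 420.0 TPM in the agonist libraries, against 280.1, 301.8 and 280.1 TPM in the vehicle libraries. On this scale the vehicle libraries lay close together and every agonist library was above them, at 547.0 ± 241.5 TPM in agonist and 287.3 ± 12.5 TPM in vehicle tumours (SD, n = 3 each). The ratio of the means was 1.9, and 1.42 without agonist replicate 2. With the row CT010467.1 left out of the TPM total, vehicle replicate 2 had 312.47 TPM, and the lowest agonist library had 396.04 TPM. In CPM the sum was 1822.1, 3517.3 and 1940.8 with agonist, against 1208.3, 1598.9 and 1258.0 with vehicle, and the groups were again apart. The vehicle libraries were less close in CPM, at 1355.1 ± 212.7 CPM (SD, n = 3). A read placed with the wrong gene of the pair does not move the CPM sum, but a read exchanged with Scd3 does. Scd3 had at most 413.38 expected counts in any library. The split of the sum varied among the vehicle libraries, with Scd1 taking 33.8% of the pair in vehicle replicate 1 and 63.4% in vehicle replicate 2.

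**Figure D3:**
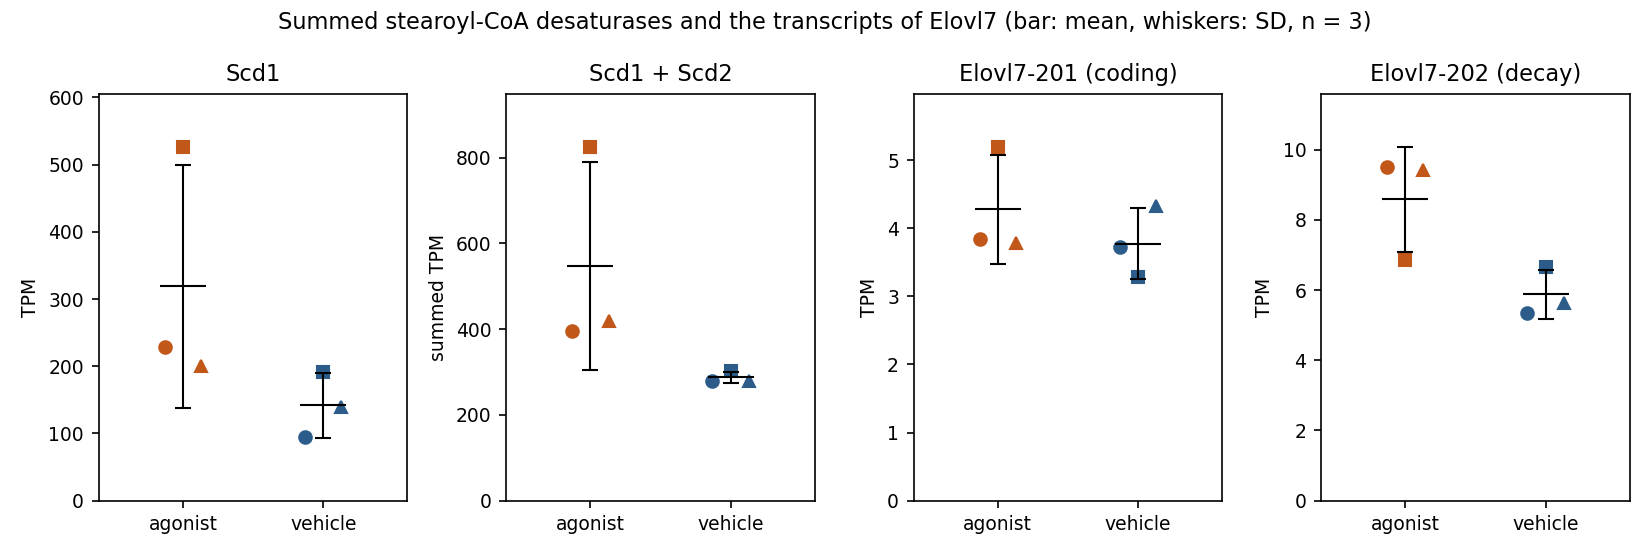
From left to right, TPM of Scd1, summed TPM of Scd1 and Scd2, and TPM of the coding transcript and the decay transcript (annotated for nonsense-mediated decay) of Elovl7 in agonist and vehicle libraries; points are libraries (circle, square and triangle for replicates 1, 2 and 3), bars means and whiskers SD. The 3 vehicle libraries lie at 280.1 to 301.8 TPM for the summed pair, below every agonist library, and the groups overlap for the coding transcript; for the decay transcript 6.85 TPM in agonist replicate 2 lies just above 6.66 TPM in vehicle replicate 2, an order that turns round when the row CT010467.1 is left out of the TPM total.

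**Figure D4:**
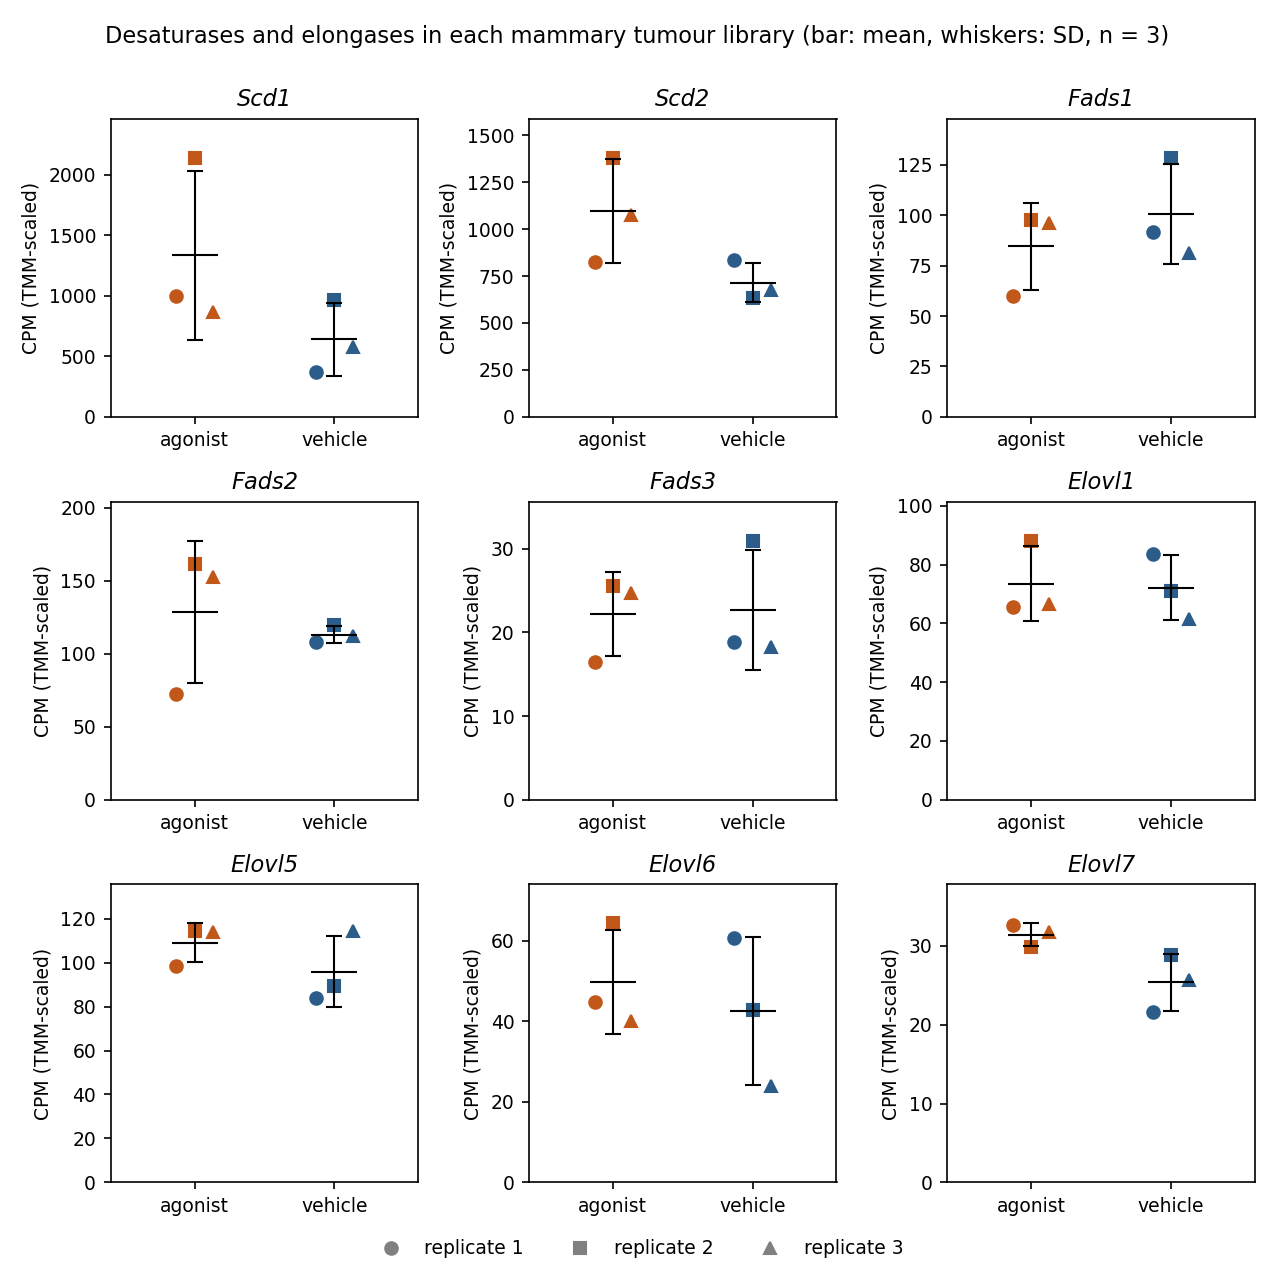
CPM of each of the 9 genes in each library, scaled by TMM, agonist left and vehicle right; bars are means, whiskers SD, n = 3. The groups overlap in every panel except that of Elovl7, and agonist replicate 1 (circle) is the lowest of the 6 libraries for Fads1, Fads2 and Fads3.

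The 3 Fads genes form a cluster on chromosome 19, with Fads3 at chr19:10041569-10060110 on the plus strand, Fads2 at chr19:10062765-10101746 on the minus strand and Fads1 at chr19:10182888-10196877 on the plus strand. Gaps of 2.7 kb and 81.1 kb separate them. Fads2 begins the conversion of linoleate and alpha-linolenate to polyunsaturated products, and it had 72.67, 161.32 and 152.33 CPM with agonist, against 108.1, 119.56 and 111.95 CPM with vehicle. Agonist libraries lay on both sides of the tight vehicle group, with a within-group SD of 0.641 for agonist and 0.0738 for vehicle on the log2 CPM scale. The log2 fold change was 0.19 ± 0.29 (SE, 95% interval -0.48 to 0.85; edgeR adjusted p = 0.99), and it was -0.0095 without agonist replicate 2 and 0.47 without agonist replicate 1.

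Fads1 carries out the later desaturation that yields arachidonate, and it had 59.8, 97.55 and 96.28 CPM with agonist, against 91.89, 128.4 and 81.24 CPM with vehicle. Its log2 fold change was -0.25 ± 0.25 (SE, 95% interval -0.83 to 0.33; edgeR adjusted p = 0.99). Fads3, known to desaturate the sphingoid base of ceramides, had 16.47, 25.53 and 24.73 CPM with agonist, against 18.9, 30.99 and 18.25 CPM with vehicle, a log2 difference of -0.03 ± 0.27 (SE, 95% interval -0.65 to 0.59; edgeR adjusted p = 0.996). For both genes the groups overlapped, with agonist replicate 1 lowest and vehicle replicate 2 highest of the 6 libraries. Without vehicle replicate 2 the log2 fold change was -0.04 for Fads1 and 0.26 for Fads3.

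Elovl6 lengthens palmitate to stearate and so supplies the stearoyl-CoA desaturases; it spans chr3:129532355-129638495. It had 44.76, 64.28 and 39.99 CPM with agonist, against 60.73, 42.86 and 23.95 CPM with vehicle, with the groups interleaved. The log2 fold change was 0.22 ± 0.35 (SE, 95% interval -0.59 to 1.04; edgeR adjusted p = 0.99), and its sign depended on a single library, at 0.57 without vehicle replicate 1 and -0.06 without vehicle replicate 3. Elovl5, which lengthens polyunsaturated chains and spans chr9:77917364-77984519, had 98.68, 114.26 and 113.92 CPM with agonist, against 83.87, 89.37 and 114.48 CPM with vehicle. All agonist libraries were above 2 of the vehicle libraries, and vehicle replicate 3 was highest of all; the log2 fold change was 0.18 ± 0.17 (SE, 95% interval -0.21 to 0.57; edgeR adjusted p = 0.99). Elovl1, which spans chr4:118428093-118432953, had 65.68, 88.15 and 66.44 CPM with agonist, against 83.61, 70.95 and 61.64 CPM with vehicle, a log2 difference of 0.03 ± 0.18 (SE, 95% interval -0.40 to 0.45; edgeR adjusted p = 0.994). Its upper bound lay below the point estimates of Scd1 and Scd2, but its interval overlapped theirs, and the genes were not tested against each other.

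Elovl7, an elongase of saturated and polyunsaturated long chains at chr13:108214404-108285683, had 32.62, 29.85 and 31.82 CPM with agonist, against 21.61, 28.78 and 25.71 CPM with vehicle. Every agonist library was above every vehicle library, by a narrow margin over vehicle replicate 2, and the agonist libraries were the tightest of the 9 genes, with an SD of 0.0661 on the log2 CPM scale. The means were 31.43 ± 1.43 CPM in agonist and 25.37 ± 3.60 CPM in vehicle tumours (SD, n = 3 each), a log2 difference of 0.31 ± 0.16 (SE, 95% interval -0.06 to 0.68; edgeR unadjusted p = 0.0873, adjusted p = 0.99). With vehicle replicate 1 left out the estimate was 0.21, and with vehicle replicate 2 left out it was 0.41.

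The annotation gives Elovl7 a pair of transcripts, 1 of 4013 bases, which codes for the protein, and a shorter one of 2351 bases, which is annotated as a target of nonsense-mediated decay. Since the deposited gene length is the mean of the transcript lengths weighted by their abundance, the level of each transcript could be recovered from it. The coding transcript had 3.84, 5.2 and 3.79 TPM with agonist, against 3.72, 3.28 and 4.33 TPM with vehicle. The decay transcript had 9.49, 6.85 and 9.41 TPM with agonist, against 5.35, 6.66 and 5.62 TPM with vehicle. The groups overlapped for the coding transcript, at 4.28 ± 0.80 TPM in agonist and 3.77 ± 0.53 TPM in vehicle tumours, and were narrowly apart for the decay transcript, at 8.58 ± 1.50 TPM in agonist and 5.88 ± 0.69 TPM in vehicle tumours (SD, n = 3 each). With the row CT010467.1 left out of the TPM total, agonist replicate 2 had 6.86 TPM and vehicle replicate 2 had 6.9 TPM of the decay transcript, so these groups then overlapped too, while those of the whole gene stayed apart, at 12.06 TPM or more with agonist and 10.29 TPM or less with vehicle. These values were computed after the gene's counts had been seen and were not tested, and they rest on how RSEM divided the reads. For Scd2 the same calculation placed between 99.98% and 100% of the level in its longer, coding transcript.

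Promoter windows of 250 bases upstream of the transcription start were at hand, from RefSeq on GRCm38.p6, for 6 of the 9 genes, namely Fads2, Fads3, Elovl1, Elovl5, Elovl6 and Elovl7. Elovl5 and Elovl7 are shown because their profiles over the libraries were the most alike among the elongases, and their promoters differ in the boxes they hold. Capitals mark matches, on either strand, to CCAAT (the NF-Y box), GGGCGG (the Sp1 box) or CACGTG (an E-box). The windows are chr9:77917115-77917364 and chr13:108214154-108214403, both on the plus strand.
Elovl5: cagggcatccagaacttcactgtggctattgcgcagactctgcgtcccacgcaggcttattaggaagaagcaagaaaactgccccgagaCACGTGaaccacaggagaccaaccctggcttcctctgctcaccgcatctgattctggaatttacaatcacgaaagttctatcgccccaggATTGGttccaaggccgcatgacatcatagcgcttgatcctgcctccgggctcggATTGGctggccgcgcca
Elovl7: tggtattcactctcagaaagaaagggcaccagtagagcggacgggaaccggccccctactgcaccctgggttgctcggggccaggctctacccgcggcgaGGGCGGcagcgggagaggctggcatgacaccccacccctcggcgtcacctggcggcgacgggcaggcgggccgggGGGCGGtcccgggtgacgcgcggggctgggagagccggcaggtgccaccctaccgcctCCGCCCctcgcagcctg
The Elovl5 window held 2 CCAAT matches and 1 CACGTG match and no GGGCGG, whereas the Elovl7 window held 3 GGGCGG matches and neither of the others. Fads3 held 2 CCAAT and 2 GGGCGG matches. Of 32851 promoter windows of this length, 33.8% held CCAAT, 32.7% GGGCGG and 6.02% CACGTG. The sterol regulatory element TCACNCCAC, the site type of the SREBP factors, was searched as well and is held by 1.05% of the windows, and the direct repeat of AGGTCA with a spacer of 4 bases, the form of LXR response element, by 0.0152%. Neither was found in the windows of the 6 genes. By GENCODE, however, 243 of the 250 bases of the Fads2 window and 129 of those of the Elovl6 window lie in exons of any annotated gene. The Fads2 window reaches only to base 10101753, against a gene end at 10101746, so it covers little of the sequence upstream of Fads2. The Elovl6 window runs from base 129532136 to 129532385 and the gene starts at 129532355, so the larger part of the window lies upstream of Elovl6. A match describes letters and is no evidence of binding.

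Within the family the composition of the pool leaned to the stearoyl-CoA desaturases in agonist tumours. Scd1 and Scd2 made up 68.02%, 73.98% and 63.26% of the summed TPM of the 9 genes in agonist libraries, against 52.61%, 59.92% and 56.7% in vehicle libraries, with no overlap. Fads1 made up 3.5%, 3.19% and 5.07% in agonist libraries, against 6.49%, 7.45% and 5.76% in vehicle libraries, also with no overlap. Elovl1 was likewise apart, with 12.04%, 9.22% and 11.27% in agonist libraries, against 19.61%, 13.23% and 14.38% in vehicle libraries. Shares of a fixed sum fall for some genes when others are higher, and the TPM of Fads1 and of Elovl1 overlapped between the groups. These compositions were examined after the levels were known and carry no test. Elovl1 was the largest of the 4 elongases in every library, with 52.75%, 56.96% and 51.87% of their summed TPM in agonist libraries, against 62.98%, 57.22% and 52.49% in vehicle libraries.

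Shares of functionally paired genes were compared with a two-sided exact permutation test, whose smallest possible p with 3 libraries against 3 is 0.1, with Benjamini-Hochberg adjustment over the 3 shares. Fads2 took 56.67%, 64.06% and 62.61% of Fads2 and Fads1 in agonist libraries, against 55.94%, 50.19% and 60.34% in vehicle libraries, and the mean was 5.63 percentage points higher with agonist (exact permutation p = 0.2, adjusted p = 0.6), or 2.98 points without vehicle replicate 2. Scd1 took 57.77%, 63.81% and 47.77% of Scd1 and Scd2 in agonist libraries, against 33.8%, 63.4% and 49.54% in vehicle libraries, a difference of 7.54 points within the spread of either group (exact permutation p = 0.6, adjusted p = 0.9). Elovl6 took 17.1% ± 3.72 of Elovl6 and Elovl5 in agonist and 17.3% ± 8.25 in vehicle libraries (SD, n = 3 each; exact permutation p = 1.0, adjusted p = 1.0).

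The 9 genes varied among libraries of the same treatment to very different degrees. The within-group SD on the log2 CPM scale was 0.695 for Scd1, 0.542 for Elovl6 and 0.457 for Fads2, against a median of 0.319 over all genes tested, and it was lowest for Elovl5 at 0.188 and Elovl7 at 0.154. The deviations of each gene from its own mean were most alike for Fads1 and Fads3, with a root mean square difference of 0.142 over the 6 libraries, then for Elovl5 and Elovl7 with 0.192, Fads2 and Fads3 with 0.273, and Fads1 and Fads2 with 0.28. The 3 Fads genes shared a low value in agonist replicate 1, at -0.59 for Fads1, -0.69 for Fads2 and -0.41 for Fads3.

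**Figure D5:**
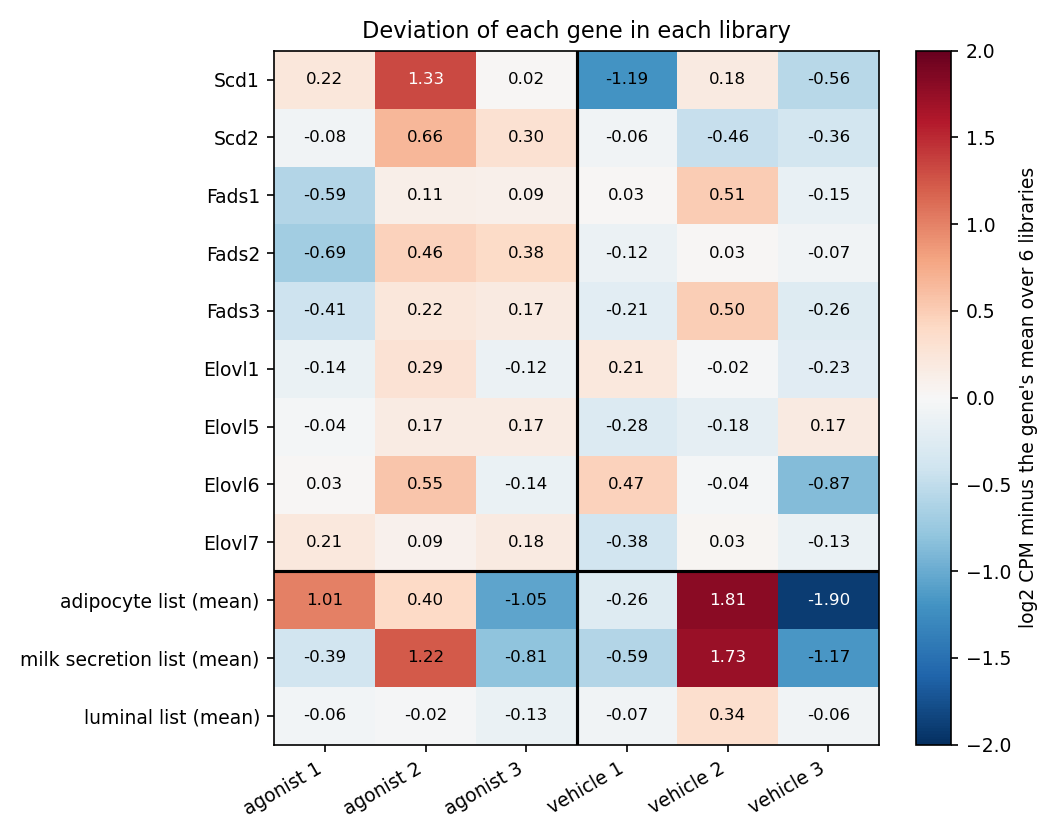
Deviation of log2 CPM from the gene's own mean over the 6 libraries (colour and printed value), agonist libraries left of the black line and vehicle libraries right, for the 9 genes and, below, the mean deviation of 3 marker lists. Scd1 is highest in agonist replicate 2 (1.33) and lowest in vehicle replicate 1 (-1.19), and the adipocyte list runs from 1.81 in vehicle replicate 2 to -1.90 in vehicle replicate 3.

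Other cells of the tumour piece moved between libraries too. Summed adipocyte markers reached 830.1, 498.9 and 131.1 TPM with agonist, against 281.6, 1141.0 and 57.12 TPM with vehicle, and of the 10 markers none was at 0 in every library. Milk secretion markers, 7 genes, had mean deviations of -0.39, 1.22 and -0.81 with agonist, against -0.59, 1.73 and -1.17 with vehicle. In mean deviations, vehicle replicate 2 led the vehicle group for Scd1 and for every marker list except that of Schwann cells. Agonist replicate 2 led the agonist group for Scd1 and for the milk, luminal and Schwann cell lists. Within the vehicle group, the summed TPM of the milk list was instead highest in replicate 3, at 24580 against 21920 in replicate 2. Agonist replicate 2 had the highest sum of all libraries, at 29170 TPM. Between agonist and vehicle the median log2 fold change was -0.40 for the 9 adipocyte markers tested and -0.17 for the milk markers. Sebaceous gland and epidermis, which also express Scd1, could be present in a piece that includes skin; the 10 markers summed to between 13.02 and 18.31 TPM in the agonist libraries, against 8.39 to 14.56 TPM in the vehicle libraries, and Awat1, Lor, Flg and Krt77 were under the filter. The 6 that were tested were all positive, as Scd1 was, with overlapping groups and a median log2 fold change of 0.24. They include Scd3 and Elovl3, which also stand among the other desaturases and elongases, and Scd3 is 91.5% identical to Scd1 in coding sequence. Elovl3, Mc5r and Krt1 were low, with means of 0.88, 0.55 and 0.28 CPM in agonist and 0.42, 0.46 and 0.24 CPM in vehicle tumours. The median log2 fold change was 0.89 for basal and myoepithelial, 0.27 for fibroblast, 0.15 for macrophage, 0.29 for endothelial and -0.20 for Schwann cell markers. The mean deviation of the basal list ran from 1.48 in agonist replicate 3 to -1.35 in vehicle replicate 3. In mean deviation the groups overlapped for every one of these cell type lists. The part of any of these cells in the level of Scd1 was not tested, and in bulk tumour RNA a change in the share of a cell type cannot be told apart from a change of transcript per cell.

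Genes with the profile most like that of Scd1 over the 6 libraries, among 13095 genes, were Pros1 with a root mean square difference of 0.241, Car2 with 0.289, Lepr with 0.311, Zfp366 with 0.313 and Gm10134 with 0.329, against a spread of 0.772 for Scd1 itself. Pros1, which encodes the anticoagulant protein S, had 140.43, 263.5 and 142.54 CPM with agonist, against 78.46, 167.33 and 96.43 CPM with vehicle. Like Scd1, it was highest in replicate 2 of each group. Scd2 was 933rd in this order and Elovl7 1142nd. Nearest to Scd2, whose own spread was 0.384, were Six4 with 0.128, Taf9 with 0.149, Pde1b with 0.166, Aaas with 0.173 and Acap1 with 0.176.

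Further genes of the pathway, none of which was called by edgeR, showed no common direction. Among the other desaturases and elongases 5 of 8 were tested, 4 of them with a positive and 1 with a negative log2 fold change, all with overlapping groups; Scd4, Elovl2 and Degs2 were under the filter. The 6 partners of the elongation cycle split into 2 positive and 4 negative, and the 6 electron donors of the desaturases likewise into 2 positive and 4 negative. Palmitate supply, the step before the 9 genes, split into 3 positive and 3 negative. Fasn, the fatty acid synthase, had 322.51, 454.05 and 383.49 CPM with agonist, against 448.78, 492.37 and 417.13 CPM with vehicle (log2 fold change -0.23 ± 0.17, SE; edgeR adjusted p = 0.99). The 95% interval ran from -0.63 to 0.18, and the groups overlapped.

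Regulators of lipogenesis were negative in 12 of 19 cases, with a median log2 fold change of -0.11. Srebf1 had 695.37, 936.88 and 1194.96 CPM with agonist, against 1210.09, 850.24 and 1103.73 CPM with vehicle, and the groups overlapped widely (log2 fold change -0.16 ± 0.24, SE; edgeR adjusted p = 0.99). Mlxipl, which encodes the carbohydrate-responsive factor ChREBP, had 9.13, 9.2 and 9.14 CPM with agonist, against 18.67, 9.56 and 17.93 CPM with vehicle. All agonist libraries were below the vehicle libraries, but vehicle replicate 2 only just above them (log2 fold change -0.75 ± 0.29, SE; edgeR unadjusted p = 0.0312, adjusted p = 0.99). Srebf2, the regulator of cholesterol synthesis, had a log2 fold change of -0.66 ± 0.27 (SE; edgeR unadjusted p = 0.0389, adjusted p = 0.99).

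Enzymes that place unsaturated acyl chains into phospholipids, 6 genes, were positive in 3 and negative in 3 cases. Mboat2, an acyltransferase for oleoyl chains, had 52.92, 55.33 and 50.99 CPM with agonist, against 33.56, 43.24 and 40.73 CPM with vehicle, with no overlap (log2 fold change 0.44 ± 0.14, SE; edgeR unadjusted p = 0.0153, adjusted p = 0.99). Its relative Mboat1 had 42.62, 39.58 and 42.56 CPM with agonist, against 24.28, 31.1 and 38 CPM with vehicle, also with no overlap (log2 fold change 0.42 ± 0.18, SE; edgeR unadjusted p = 0.0518, adjusted p = 0.99). Agpat3 lay on the other side, with a log2 fold change of -0.48 ± 0.18 (SE; edgeR unadjusted p = 0.0283, adjusted p = 0.99). Ceramide synthases, the users of the chains made by Elovl1, and the genes of peroxisomal chain shortening each split into 3 positive and 3 negative, and of the 10 tested genes of arachidonate conversion 6 were positive and 4 negative, none with groups that were apart.

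Classical LXR targets served as the check of the agonist, and 7 of the 8 listed had a positive log2 fold change. Srebf1, at -0.16, was the exception. Lpcat3 at 0.32, Apoe at 0.23, Pltp and Mylip at 0.10 each and Smpdl3a at 0.06 had overlapping groups. The remaining 2, Abca1 and Abcg1, were apart and higher, as were 3.02% of all genes. Abca1, a cholesterol exporter, had 100.23, 136.45 and 117.5 CPM with agonist, against 42.9, 99.89 and 54.28 CPM with vehicle, and Abcg1, another exporter, had 39.72, 39.98 and 30.7 CPM with agonist, against 14.18, 24.52 and 22.28 CPM with vehicle. For both genes every agonist library was above every vehicle library, with log2 fold changes of 0.85 ± 0.31 and 0.86 ± 0.23 (SE; edgeR unadjusted p = 0.0288 and 0.00644, adjusted p = 0.99 for both). Vehicle replicate 2 was the highest vehicle library for Abca1, for Abcg1 and for Scd1.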

How the data were processed

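RNA sequencing of 6 mammary tumour libraries, 3 agonist and 3 vehicle, was grouped by the treatment label. The deposited tables hold expected counts per gene, TPM, and transcript length in bases, made by the authors; the deposited FPKM were not used. Per the submitters' processing notes, the authors' tools were STAR 2.7.9a and RSEM 1.3.1 on GRCm38, with cutadapt 3.5 and FastQC 0.11.9 and, in R 4.1, DESeq2 1.36.0. Read filters, annotation release and strand setting were not stated in the sources used here, and reads of overlapping and antisense genes cannot be told apart. Other lengths and positions are from GENCODE M21, in which 55141 of 55487 rows were found and 99.5% of the 34176 rows with 1 transcript had the same length.

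Expected counts were not whole in 10.09% to 10.53% of all 55487 rows per library, rows without reads included. Between 23448 and 23989 rows per library had counts. The counts were rounded and tested with edgeR 4.0.16 in R 4.3.3. Settings were TMM, filterByExpr with minimum count 10 and minimum total 15, a robust quasi-likelihood F test and no covariates. Benjamini-Hochberg adjustment ran over 17396 genes, with a threshold of 0.05. CPM are scaled to TMM-adjusted totals. Depth gives a floor of 3 counts at 0.0704 to 0.082 CPM, which covers counting error only. Libraries of a group differed beyond counting noise (chi-square over degrees of freedom of 80.1 to 330). The script was tested on simulated counts. The 9 genes and the pathway and marker lists were chosen with earlier results of these data known. From each pathway list up to 3 genes with the smallest unadjusted p could be named. Beyond that rule, Srebf1, Scd3, the remaining LXR targets, the summed Scd pair and the Elovl7 transcripts were chosen after their values were seen. Profile likeness used log2 CPM with a prior count of 2 and genes of mean log2 CPM of at least 1. Alternatives were other scalings and filters, the replicate block, each library left out, the DESeq2 1.42.0 Wald test, limma 3.58.1 voom and trend fits on log2(TPM + 1) and log2(TPM + 0.1), and TPM without 1 row.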

Additional observations from a re-analysis of the deposited data

How the results depend on the processing

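Under 16 settings the 9 genes gave 144 log2 fold changes, of which 12 had the other sign; no gene of the 9 was called under any of them, and Scd1, Scd2, Fads1, Elovl5 and Elovl7 kept their sign in all. Fads3 was 0.003037 with upper-quartile factors, 0.1411 with limma-voom, 0.05688 with limma-trend on log2(TPM + 1) and 0.06119 on log2(TPM + 0.1), and Elovl1 was -0.0317 with limma-voom. Leaving out 1 library gave -0.1586 to 0.2562 for Fads3, -0.009473 to 0.4718 for Fads2, -0.1265 to 0.1471 for Elovl1 and -0.06141 to 0.5725 for Elovl6. The number of positive genes among the 9 was 8 with upper-quartile factors and 4 without agonist replicate 2. Over all genes the DESeq2 Wald test called 4, against 0 with edgeR, and the cause was not tested. Genes at an unadjusted p under 0.05 numbered 538 with edgeR, 666 with DESeq2, 1211 with limma-voom, 315 with agonist replicate 3 left out and 2442 with vehicle replicate 2 left out. The Elovl6 share of Elovl6 and Elovl5, -0.167 points between agonist and vehicle, was 0.4927 points in expected counts and -4.446 to 3.785 points with 1 library left out; with 1 library left out the Scd1 share of Scd1 and Scd2 was -0.01623 to 14.78 points and the Fads2 share of Fads2 and Fads1 2.977 to 8.051 points. Without the row CT010467.1, an alternative chosen after seeing the data, the lowest agonist minus the highest vehicle TPM of the Elovl7 decay transcript was -0.04401, against 0.1851 as deposited. With the replicate block the count of genes called among the 9 stayed 0. The edgeR unadjusted p of Scd1 was then 0.00414 (edgeR adjusted p = 0.959) and that of Scd2 0.0654. The replicate numbers are not said to mark a shared litter, batch or day, so they were not taken to pair the libraries. Deviations from the group means correlated at 0.172, 0.0377 and 0.0628 for same-numbered libraries. For agonist and vehicle libraries of different number the correlations were -0.109 to 0.055, and whether the libraries are paired was not tested. The lowest count of any of the 9 genes was 608, so counting error is small beside the spread between libraries.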
